A study of Arabidopsis thaliana with 6 samples.

Results

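The RALF (rapid alkalinization factor) genes of Arabidopsis thaliana were followed in pollinated flowers of the pop2-1 mutant and of the wild type. Members were all probe sets with 1 annotated gene whose symbol is RALF or RALFL followed by a number, which gave 11 of 22746 probe sets on the Affymetrix ATH1 array. The reference gene table lists 34 RALF genes, so 23 of them, RALF1, RALFL4, RALFL19 and RALF23 among them, were not analysed here. The family was selected on the signals of RALFL18, which was among the transcripts lower in pop2-1, so its difference between the groups is given as a description, without a test. The other 10 members were taken by name.

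Both groups were of the Ler accession, grown at 21 °C with a 16-hour photoperiod, and flowers of stage 14 to 15 were collected after pollination. The mutant flowers came from plants homozygous for pop2-1, the 1 mutant allele in the series. POP2 is a transaminase that degrades GABA (γ-aminobutyric acid), and pop2-1 flowers hold high levels of this amino acid. Each group had 3 biological replicates with 1 array each. No label says how many plants were pooled, and groups were taken from the titles because the description and growth fields give the mutant's wording for the wild-type samples too.

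RALFs are small cysteine-rich peptides that are cut from secreted precursors and act outside the cell. They bind receptor kinases of the CrRLK1L family, of which FERONIA is the best known, together with small membrane-anchored co-receptors, and they also bind leucine-rich repeat extensins (LRX proteins) in the wall. In the flower, different RALFs act in the stigma, in pollen and in ovules, where they take part in pollen acceptance, in keeping the pollen tube wall intact during growth, and in its bursting at the ovule.

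Of the 11 members, 9 gave signals above those of the array's bacterial controls on all 6 arrays and 2 gave none above them. The values are MAS5 signals, a linear measure of hybridisation per probe set. The authors' scaling gave each array the same average, with a trimmed mean of 500.04 on each. No detection calls were used, so 27 control probe sets for bacterial genes served as a yardstick. Their signals had a median of 8.91 and reached at most 58.3. Over all probe sets 65.7% lay above that level on all 6 arrays. Probe sets differ in how well they hybridise, so the signals of different genes were not read as amounts of RNA. Percentiles below give the rank of a signal among the non-control probe sets of its array. They do not rank genes by amount of RNA.

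**Figure D1:**
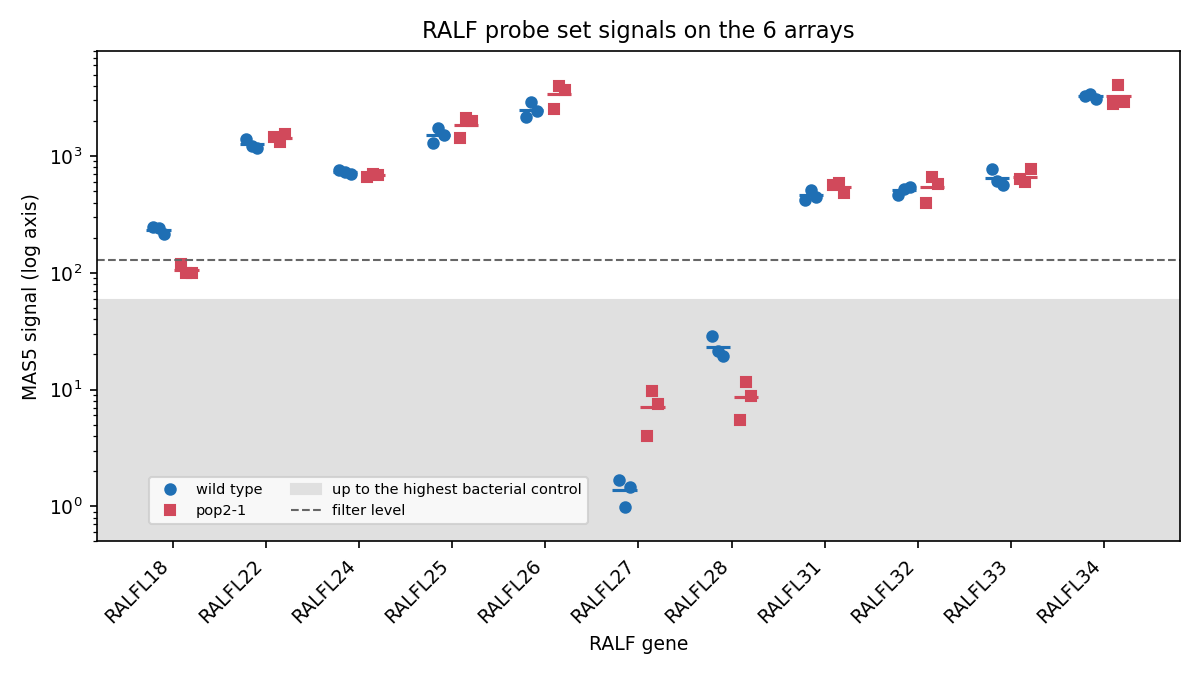
MAS5 signal (log axis) of the 11 RALF probe sets, with 3 wild-type arrays as circles, 3 pop2-1 arrays as squares and group means as short lines. The grey area ends at the highest bacterial control signal (58.3) and the dashed line marks the level of 129.7 below which probe sets were not tested; RALFL27 and RALFL28 lie in the grey area, and RALFL18 lies between these levels in pop2-1.

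RALFL34 and RALFL26 reached high signals in the flower. RALFL34, a ligand of the receptor kinase THESEUS1 in roots whose peptide is also made in ovules, had signals of 2810, 4095 and 2932 in pop2-1 and 3263, 3419 and 3061 in wild type. These lay between percentiles 95.2 and 97.3 of their arrays. The mutant range enclosed the wild-type range, with pop2-1 replicate 2 highest of the 6 arrays. RALFL26, a pollen-expressed member, had signals of 2529, 4013 and 3697 in pop2-1 and 2147, 2924 and 2429 in wild type, between percentiles 93.4 and 97.2. RALFL25, also expressed in pollen, had 1443, 2131 and 1994 in pop2-1 and 1301, 1760 and 1504 in wild type, between percentiles 88.2 and 93.7. In both genes pop2-1 replicates 2 and 3 exceeded all 3 wild-type arrays while pop2-1 replicate 1 did not. RALFL25 and RALFL26 are direct neighbours on chromosome 3, with 0 protein-coding genes between them in the TAIR10.1 table.

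RALFL22, one of the RALFs of the stigma, had signals of 1445, 1314 and 1536 in pop2-1 and 1398, 1219 and 1166 in wild type, between percentiles 86.9 and 90.6. RALFL33, another stigma RALF, had 635, 598 and 773 in pop2-1 and 776, 614 and 571 in wild type. The groups overlapped in both genes. RALFL24 varied least among the members, with 666.0, 699.7 and 689.7 in pop2-1 and 755.7, 725.2 and 701.4 in wild type, a coefficient of variation of 2.53% and 3.74% within the groups. Its groups did not overlap, but the highest mutant and the lowest wild-type signal were 699.7 and 701.4. RALFL31 had 563, 583 and 485 in pop2-1 and 417, 516 and 447 in wild type, and RALFL32 had 394, 667 and 578 in pop2-1 and 465, 519 and 549 in wild type. Both lay between percentiles 64.1 and 76.0, and in both the groups overlapped. In RALFL32 the mutant arrays spread widely, with a coefficient of variation of 25.5% against 8.33% in wild type.

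RALFL27 and RALFL28 were at the level of the controls. RALFL27 had signals of 4.001, 9.80 and 7.48 in pop2-1 and 1.69, 0.986 and 1.45 in wild type. RALFL28 had 5.47, 11.7 and 8.81 in pop2-1 and 28.7, 21.5 and 19.2 in wild type. The groups did not overlap in either gene, but all 12 signals were below the highest bacterial control, and over all non-control probe sets 15.8% had groups that did not overlap. Neither gene was tested, and no fold is given for them.

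RALFL18 had signals of 119, 101 and 99.1 in pop2-1 and 249, 242 and 214 in wild type. Every mutant signal was below every wild-type signal. The mean was 235 ± 18.8 in wild type and 106 ± 11.1 in the mutant (SD, n = 3 arrays each). The difference was -1.04 on the scale of log2(signal + 16). That is a 2.06-fold lower value of signal + 16 in pop2-1, and the 16 added makes this fold smaller than that of the signals. RALFL18 lay between percentiles 50.1 and 53.7 of the wild-type arrays and between 34.2 and 39.6 of the mutant arrays. The mutant signals remained above every bacterial control. Of the genes that served as markers from outside the flower, EXPA7 and PYK10 gave 4.87 to 62.9 over the 6 arrays. EXPA18, an expansin gene of root hairs, gave 118, 14.6 and 98.0 in pop2-1 and 60.2 to 77.5 in wild type. Probe sets differ in background, so these signals do not show how far above its own background RALFL18 lay in the mutant. In a whole flower, fewer cells of a type and less RNA per cell cannot be told apart.

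RALFL18 was chosen as 1 of 43 probe sets that were lower in pop2-1 in the fit described below, 0.315% of the 13647 tested. It passed the filter of that fit, a mean signal above 129.7, only through wild type. Its mean was 235 in wild type and 106 in pop2-1. With no filter it was not called. Its calls describe how it was chosen and are not a test. When each array was left out in turn, the call of RALFL18 held in 1 of 6 fits, without pop2-1 replicate 1. It was lost without pop2-1 replicate 2 or 3 and without wild-type replicate 1, 2 or 3. The difference itself ran from -1.11 to -0.998 in these 6 fits. Quantile normalization gave -1.11 and equal medians gave -1.10.

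Markers of other tissues were few on the array, and BAN was the 1 among those tested that was called in the fit described below. Of 14 flower organ genes on the list 1 was named, SWEET9, the sugar exporter of nectaries, with signals of 6814 to 7367 over the 6 arrays, between percentiles 98.8 and 99.0. Of 11 genes of pistil, ovule and young seed 5 were named. Their summed signal ranged over 374 to 498 in the mutant and 466 to 860 in wild type, and 0 of the 5 were listed at 0. BAN, the anthocyanidin reductase of the seed coat, was at 229 to 494 in wild type and 43.5 to 71.2 in the mutant. It was low in the same arrays as RALFL18. Like RALFL18, BAN passed the filter of the fit only through wild type, with means of 394 there and 56.2 in pop2-1. Its call is therefore given as a description. The ovule integument gene INO was at 193 to 330 in wild type and 269 to 355 in the mutant. AGL62, of the endosperm, was at 17.5 to 31.4 in wild type and 13.8 to 33.8 in the mutant. EC1.2 was at 7.86 to 47.9 in wild type and 44.1 to 53.6 in the mutant, and IKU2 at 4.38 to 6.73 and 2.76 to 7.09. AGL62, EC1.2 and IKU2 were too dim to test. The part of seed or ovule tissue in the RALFL18 difference was not tested.

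The genes whose signals ran most like those of RALFL18 over the 6 arrays were HAT2, AT1G04960, AT5G06270, AT4G20320 and AT1G49050, with Pearson correlations of log2(signal + 16) between 0.980 and 0.987. They were taken as the 5 highest of 7314 tested probe sets with 1 annotated gene. HAT2, a homeodomain-leucine zipper factor of auxin responses, had 465, 461 and 471 in pop2-1 and 901, 935 and 856 in wild type. All 5 were lower in pop2-1, by 0.41 to 0.92 on the log2 scale in size. The 6 points fall into the same pair of groups for each gene, so any transcript with a clear difference of that sign scores high, and 125 of the 7314 had a correlation above 0.9.

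**Figure D2:**
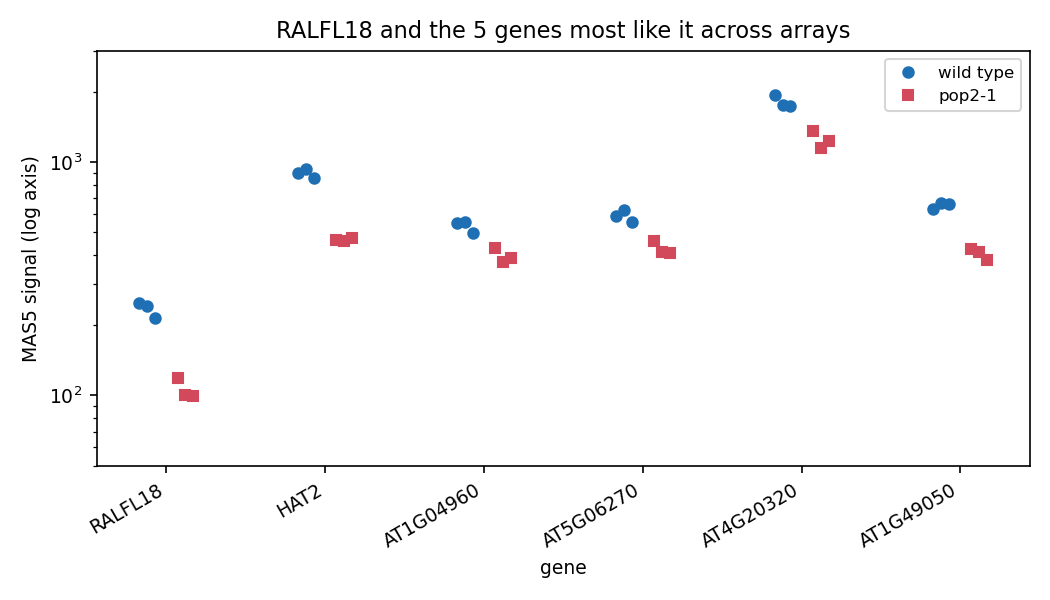
MAS5 signal (log axis) of RALFL18 and of the 5 genes most like it over the 6 arrays, with wild type as circles and pop2-1 as squares. In all 6 genes the 3 mutant signals lie below the 3 wild-type signals; for RALFL18 they are 99.1 to 119 against 214 to 249.

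The other members were compared between the groups with limma, fitted to all 13647 probe sets whose mean signal over the 6 arrays exceeded 129.7, with Benjamini-Hochberg adjustment over all of them. Called means an adjusted p under 0.05. Over the whole array 63 were called, 0.462% of those tested. Of the 8 members other than RALFL18 that were tested, 0 were called, and 1 had an unadjusted p under 0.05, against 11.9% of all tested probe sets. With the replicate number as a block 0 of the 8 were called, against 1.9% of all. In that fit 2 of the 8, RALFL25 and RALFL26, had an unadjusted p under 0.05, as had 2327 of the 13647. The median log2 difference of the 8 was 0.12, beside 0.03 over all tested probe sets, and 6 of the 8 were above 0, as were 55.4% of all. Non-overlapping groups were found in 1 of the 8, RALFL24, and in 17.9% of all tested.

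The pollen members had the largest differences of the 8 in the fit described above. RALFL26 stood at 0.43 ± 0.18 (SE) on the log2 scale, with a mean of 2500 ± 393 in wild type and 3413 ± 782 in the mutant (SD, n = 3 arrays each), and its limma adjusted p was 0.394 (unadjusted 0.0405). RALFL25 stood at 0.28 ± 0.17 (limma adjusted p = 0.545). The 95% interval ran from 0.02 to 0.84 for RALFL26, unadjusted for the number of probe sets, and from -0.10 to 0.65 for RALFL25. RALFL26 was called, at 0.63 with an adjusted p of 0.0394, when pop2-1 replicate 1 was left out of the limma fit. When arrays were weighted in limma it was called at 0.51 with an adjusted p of 0.039. Those fits called 509 and 972 of all 13647 probe sets tested. Without pop2-1 replicate 2 the difference of RALFL26 was 0.30 and that of RALFL25 was 0.17. RALFL22 at 0.24 and RALFL31 at 0.18 then stood above RALFL25.

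Among the remaining members, RALFL31 stood at 0.23 ± 0.13 and RALFL22 at 0.18 ± 0.12 on the log2 scale, with limma adjusted p of 0.518 and 0.561. Both were higher in pop2-1 in all 3 same-numbered pairs of arrays, as were RALFL25 and RALFL26, which made 4 of the 8 members where 22.2% of all tested probe sets did so. RALFL24 stood at -0.08 ± 0.11 (limma adjusted p = 0.778). Its 95% interval ran from -0.33 to 0.16. RALFL32, RALFL33 and RALFL34 had differences of 0.06 ± 0.19, 0.03 ± 0.15 and -0.01 ± 0.14, with limma adjusted p of 0.908 to 0.990. For RALFL34, the THESEUS1 ligand, the 95% interval ran from -0.33 to 0.32. The intervals of RALFL32 and RALFL33 ran from -0.35 to 0.48 and from -0.31 to 0.38. The sign of RALFL33 turned after scaling to equal medians, that of RALFL34 after quantile normalization and that of RALFL32 without pop2-1 replicate 2.

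**Figure D3:**
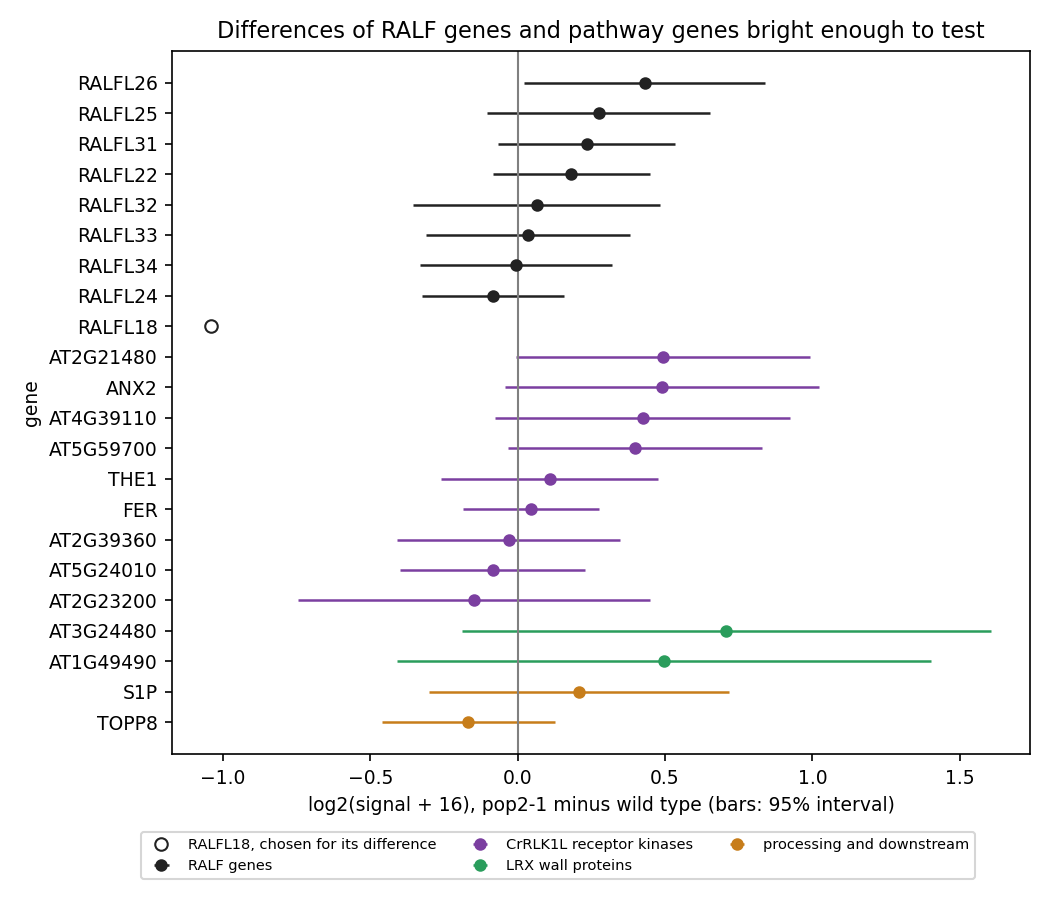
Difference of log2(signal + 16), pop2-1 minus wild type, for the 9 RALF genes and 13 pathway genes bright enough to test, with 95% intervals from limma. RALFL18 is an open circle without an interval because it was chosen for its difference; 0 of the other genes were called, and the interval of RALFL26 starts at 0.02.

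The pollen members ran alike over the arrays, and some but not all genes of pollen ran with them, as did THE1. In both RALFL25 and RALFL26, replicate 2 was highest and replicate 1 lowest within each group. ANX2, a receptor kinase that keeps the growing pollen tube intact, and AT4G39110, a receptor kinase gene of the same family, had replicates 2, 3 and 1 in the same order in each group. AT1G49490, a gene of the LRX wall proteins, had this order as well. THE1, the gene of THESEUS1, and AT5G39020, a dim gene of the receptor kinase family, had it too. The order was therefore not particular to genes of pollen. ANX2 had 341, 741 and 495 in pop2-1 and 325, 368 and 366 in wild type, and AT4G39110 had 526, 950 and 671 in pop2-1 and 418, 642 and 506 in wild type. MGH3, a histone gene of male gametes, had 170, 309 and 246 in pop2-1 and 151, 195 and 133 in wild type, highest on replicate 2 in each group. The other pollen markers on the array were not highest there. ACT12, an actin of pollen, had 130, 192 and 225 in pop2-1 and 98.0, 133 and 160 in wild type. ACT11, an actin of reproductive tissue that is not confined to pollen, had 940, 927 and 1266 in pop2-1 and 1115, 986 and 991 in wild type. Both were highest on pop2-1 replicate 3, and ACT11 was lowest on pop2-1 replicate 2. These 3 genes were all that the array named of 20 pollen markers. Their summed signal was 1285 to 1364 in wild type and 1241 to 1736 in the mutant, and 0 were listed at 0. ACT11 differed by 0.01 on the log2 scale, while ACT12 and MGH3 stood at 0.43 and 0.53. In limma 0 of the 3 were called and 1, MGH3, had an unadjusted p under 0.05.

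A measure of RNA quality, the signal ratio of the 3' to the 5' actin control, was also highest on replicate 2 within each group. It was 9.73 on pop2-1 replicate 2, 2.93 on wild-type replicate 2 and 1.72 to 2.70 on the other 4 arrays. Of the 9 members tested, 5 were highest on pop2-1 replicate 2, as were 34.1% of all tested probe sets. With the log of that ratio as a covariate the difference of RALFL26 was 0.26 and that of RALFL25 was 0.13, and that of RALFL18 was -1.01. The part of pollen content and of RNA quality in the differences of RALFL25 and RALFL26 was not tested beyond these values.

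**Figure D4:**
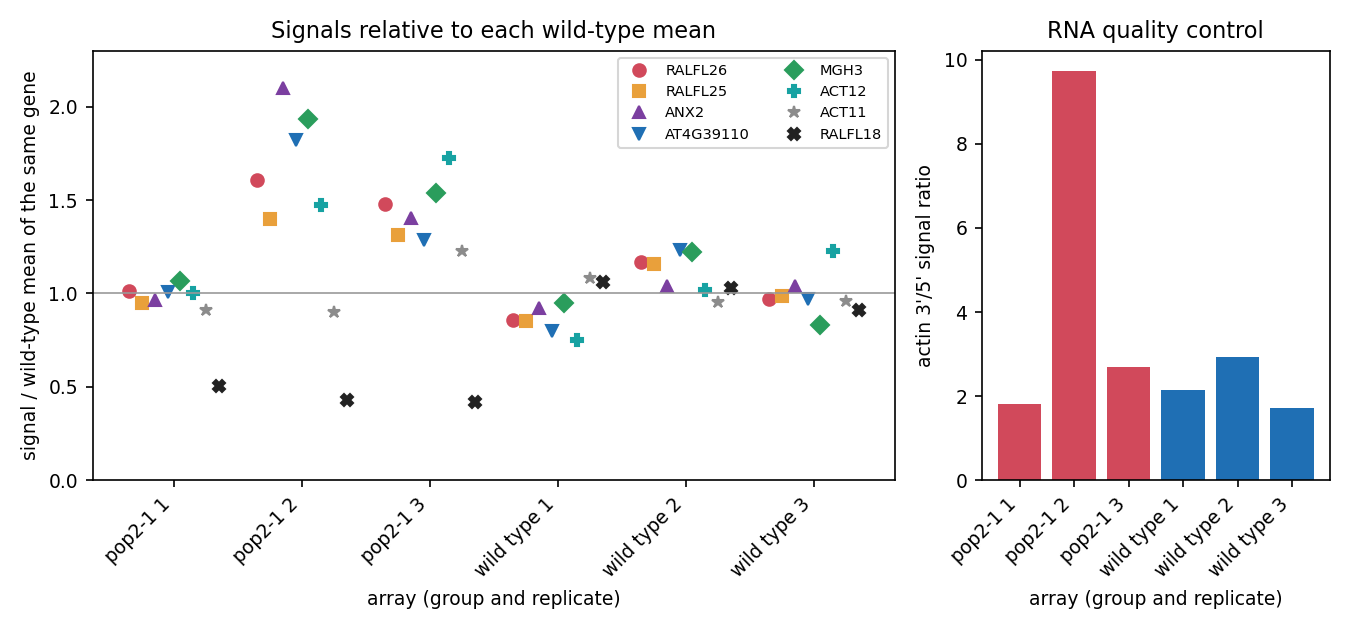
Left, the signal on each array divided by the wild-type mean of the same gene, for RALFL26, RALFL25, ANX2, AT4G39110, the 3 pollen markers MGH3, ACT12 and ACT11, and RALFL18. Right, the actin 3'/5' signal ratio of each array. RALFL26, RALFL25, ANX2, AT4G39110 and MGH3 are highest on pop2-1 replicate 2, where the ratio is 9.73, ACT12 and ACT11 are highest on pop2-1 replicate 3, and RALFL18 is low on all 3 pop2-1 arrays.

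The partners of the RALFs were called in 0 of 13 tested cases, beside 0.462% of all tested probe sets. The lists of receptors, co-receptors, wall proteins, and processing and downstream genes held 48 genes, of which 23 were named on the array and 10 were too dim to test. In the 13, 0 had an unadjusted p under 0.05 in limma, and adjusted p ran from 0.421 to 0.955. The median log2 difference was 0.21 beside 0.03 over all tested probe sets. AT3G24480, AT1G49490 and AT2G21480 passed the filter only through pop2-1, with wild-type means of 104, 111 and 106. Their differences of 0.71, 0.50 and 0.49 lie above that median. The filter itself thus pushes the median up, and it is not read as a result on the partners. With the replicate number as a block 0 of the 13 were called, against 1.9% of all. In that limma fit 3 of the 13, ANX2, AT4G39110 and AT2G21480, had an unadjusted p under 0.05, as had 2327 of the 13647. Groups that did not overlap were found in 2 of the 13, AT2G21480 among them, near the 17.9% of all tested probe sets.

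Of the 17 CrRLK1L receptor kinase genes 12 were named and 9 tested. FER (FERONIA), the receptor of several RALFs in the stigma and ovule, had signals of 2161, 2438 and 2075 in pop2-1 and 2135, 2145 and 2168 in wild type. The groups overlapped, and the difference was 0.05 ± 0.10 on the log2 scale with a 95% interval of -0.18 to 0.28 (limma adjusted p = 0.879). THE1, the wall integrity receptor THESEUS1, had 506, 725 and 704 in pop2-1 and 514, 636 and 628 in wild type, a difference of 0.11 ± 0.16. ANX2 stood at 0.49 ± 0.24 and AT4G39110 at 0.42 ± 0.22. AT2G21480 had 126, 142 and 206 in pop2-1 and 96.2, 115 and 105 in wild type, and AT5G59700 had 187, 171 and 186 in pop2-1 and 147, 155 and 104 in wild type. In these last genes all mutant signals were above all wild-type signals, but neither was called (limma adjusted p = 0.421 and 0.454). ANX1, the partner of ANX2 in pollen tubes, was too dim to test, at 52.4 to 108.

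Most wall protein genes were too dim to test. Of 11 LRX genes 8 were named and 2 were tested. AT3G24480 had 86.5, 185 and 324 in pop2-1 and 136, 102 and 72.7 in wild type, with an SE of 0.40 around a log2 difference of 0.71. AT1G49490 had 366 on pop2-1 replicate 2 and 94.5 to 119 on the other 5 arrays. AT2G15880, too dim to test, was also highest on that array, at 232, with 45.6 to 142 on the others. Of 4 co-receptor genes of the LORELEI family 0 were named. S1P, the site-1 protease that cleaves RALF precursors, had 427, 776 and 416 in pop2-1 and 491, 460 and 391 in wild type. It too was highest on pop2-1 replicate 2, and its difference was 0.21 ± 0.23 (limma adjusted p = 0.736). TOPP8, a protein phosphatase gene, stood at -0.17 ± 0.13, and AT2G41970, too dim to test, lay at 67.2 to 108 on the wild-type arrays and 93.7 to 155 on the mutant arrays.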

How the data were processed

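Signals of 6 arrays, 3 per group, were used. The deposited values are linear intensities, and the submitters' processing notes name MAS5; its version and scaling target are not given in the sources used here. Of 22810 probe sets, 64 were controls. Platform annotation gave 1 gene for 13513, matched to the TAIR10.1 gene table by Entrez number (13436) or symbol (72, RALFL22 among them). No coordinates are given because no build accompanies the signals, and without probe sequences cross-hybridisation between related RALF genes could not be checked.

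A pseudocount of 16 was added before log2, which understates differences at low signals. The dimmest 40 percent by mean signal were left out. The fit used limma 3.58.1 (R 4.3.3; lmFit, eBayes with trend, 2-sided) and was checked on simulated data. The spread between 3 arrays limits precision. Errors beside log2 differences are limma standard errors. Errors, intervals and p-values are from the fit without the replicate block unless another fit is named.

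Members and lists were chosen with earlier results of these data known. The text names every member. The rule for pathway genes was to name those with an unadjusted p under 0.05 and the 3 brightest of each list. Without the replicate block 0 had such a p. Others were chosen after their values were seen. Same-numbered arrays deviated together (correlations 0.208, 0.418 and 0.172), so the numbers were taken to pair the arrays, and a fit with the replicate block was run as 1 of 15 alternatives.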

Additional observations from a re-analysis of the deposited data

How the results depend on the processing

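The 8 members other than RALFL18 gave 0 calls in 13 of 15 alternatives. Array weights gave 1 call, and the fits that leave out 1 array gave 0 to 1; the call was RALFL26 each time. The replicate block gave 0 calls of these members (RALFL26 at 0.43, limma adjusted p = 0.0771) and changed no call of them or of a pathway gene. Pathway genes gave 0 calls except with array weights, which gave 2 of 13, AT3G24480 and AT2G21480, beside 972 of all 13647. Both had passed the filter only through pop2-1. The count over all probe sets was 259 with the replicate block, 972 with array weights, 157 with the actin 3'/5' covariate, 41 with a filter at the 60th percentile, where fewer were tested, and 5 to 509 when 1 array was left out. The cause of these shifts was not tested. Directions turned where differences were small: RALFL33 was -0.030 with equal medians and -0.072 to 0.16 with 1 array left out, RALFL32 -0.097 with the actin covariate and -0.092 to 0.28 with 1 array left out, and RALFL34 0.042 after quantile normalization and -0.18 to 0.095 with 1 array left out. RALFL18 ranged from -1.14 with a pseudocount of 1 to -0.81 with one of 64 in the 14 alternatives that tested it. It was chosen for its difference, so its sign in these fits is a description and not a check. With no filter it was not called, and a filter at the 60th percentile left it out.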
